A study of Homo sapiens with 6 samples.

Results

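Divergent transcripts are long non-coding RNAs that start beside a protein-coding gene and run away from it on the opposite strand, and GENCODE names such a gene after its neighbour with the ending -DT. Here 184 of 588 -DT genes in the count table were studied, in SH-SY5Y cells, a human neuroblastoma line. They were chosen by their measured level, as lncRNA genes with a -DT symbol and 300 or more counts summed over the 6 libraries. Another 404 -DT genes fell below that limit, of which 45 had 0 counts in every library. The limit passed between NIPAL4-DT, with 303 summed counts, and SLC2A1-DT, with 327, just inside, and PIK3IP1-DT, with 298, and TMEM263-DT, with 296, just outside. Each of the 184 members had a protein-coding partner of the same name on the opposite strand.

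All libraries came from SH-SY5Y cells infected for 24 h with an adenovirus that carries a CMV promoter, a strong promoter active in most cells. In 3 libraries the virus was Ad CMV GFP, which makes green fluorescent protein and served as control, and in the other 3 it was Ad CMV 3xFlag-Esrrg, which makes a tagged form of the orphan nuclear receptor ERRγ. No uninfected cells were included, so the virus, the CMV promoter and the cell line were shared by both groups, and a single line was used. RNA was rRNA-depleted total RNA, which holds transcripts without a poly(A) tail as well as those with 1, and the library kit kept strand information.

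Divergent transcription is a common property of mammalian promoters that lack a TATA box and lie in CpG islands. RNA polymerase II initiates in both directions from the same open stretch of DNA. In the gene direction, U1 snRNP binds 5′ splice sites and protects the transcript from early cleavage. In the other direction, early poly(A) signals, the Integrator and Restrictor complexes and the nuclear RNA exosome usually end and degrade the transcript, and the members described here are those that accumulated enough to be counted. ERRγ binds DNA and activates genes of oxidative metabolism, many of which encode mitochondrial proteins.

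The starts of a pair, taken from the canonical transcripts of GENCODE release 44 on GRCh38, lay close together. Their median distance was 152 bases, with quartiles of 90.5 and 297.5. In 127 pairs the starts were 0 to 300 bases apart and faced outward, in 15 they were more than 1000 bases apart, and in 12 the -DT gene started on the partner's side of the partner's start, so that the RNAs can overlap. The DNA between the starts is shown for 5 pairs, 3 of which moved in opposite directions with the lncRNA falling (EOLA2, HCCS and FAM174A), 1 in opposite directions with the lncRNA rising (KDM7A) and 1 down together (ADGRB3). The partner's sense strand is printed from 5′ to 3′. Capitals mark the bases between both starts, and the lower-case letters are the first 8 transcribed bases of the -DT gene (on the left, so complementary to its RNA) and of the partner (on the right).
EOLA2-DT and EOLA2, chrX:149938484-149938635, minus strand: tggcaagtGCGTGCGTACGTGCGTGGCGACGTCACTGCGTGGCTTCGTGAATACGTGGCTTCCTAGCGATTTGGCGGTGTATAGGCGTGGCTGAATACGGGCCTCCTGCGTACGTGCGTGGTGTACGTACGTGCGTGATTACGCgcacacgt
HCCS-DT and HCCS, chrX:11111213-11111339, plus strand: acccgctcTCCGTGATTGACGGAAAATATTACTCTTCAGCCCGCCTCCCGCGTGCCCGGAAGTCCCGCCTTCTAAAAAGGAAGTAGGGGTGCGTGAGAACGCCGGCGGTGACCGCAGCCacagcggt
FAM174A-DT and FAM174A, chr5:100535227-100535381, plus strand: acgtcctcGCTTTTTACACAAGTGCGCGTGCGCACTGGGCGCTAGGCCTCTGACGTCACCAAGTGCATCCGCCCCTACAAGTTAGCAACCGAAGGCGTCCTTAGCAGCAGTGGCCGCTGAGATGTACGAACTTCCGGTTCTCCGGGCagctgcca
KDM7A-DT and KDM7A, chr7:140176976-140177191, minus strand: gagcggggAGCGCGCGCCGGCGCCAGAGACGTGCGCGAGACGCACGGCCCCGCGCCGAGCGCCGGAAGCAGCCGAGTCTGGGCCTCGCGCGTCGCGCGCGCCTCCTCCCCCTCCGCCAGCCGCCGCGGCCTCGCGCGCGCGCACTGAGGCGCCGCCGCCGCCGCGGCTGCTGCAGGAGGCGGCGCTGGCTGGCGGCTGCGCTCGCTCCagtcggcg
ADGRB3-DT and ADGRB3, chr6:68635129-68635289, plus strand: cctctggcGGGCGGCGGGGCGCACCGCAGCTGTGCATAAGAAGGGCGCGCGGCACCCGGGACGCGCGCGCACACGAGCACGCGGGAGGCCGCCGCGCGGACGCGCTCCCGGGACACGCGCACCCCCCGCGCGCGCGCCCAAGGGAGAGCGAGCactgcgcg

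These spans were rich in CpG, but their G and C content differed. The KDM7A span was 82.9% G or C with 46 CpG in 216 bases, and the ADGRB3 span was 80.7% G or C with 33 CpG. The HCCS span was 61.4% G or C with 14 CpG in 127 bases, and the EOLA2 and FAM174A spans were 59.9% and 60% G or C with 22 and 14 CpG. Over the 127 outward pairs with starts within 300 bases, a window of 300 bases centred between the starts had a median G and C content of 69%, against 58.67% over 35116 RefSeq promoters of the same length. The median number of CpG was 33 in these windows and 14 in the promoters. The letters TATAAA, the core of a TATA box, were in 3.15% of the windows and 11.5% of the promoters, searched on both strands. The letters CCGGAAG, bound by the ETS factor GABPA, were in 29.1% of the windows, 22.3% of 977 windows between other head-to-head lncRNA and protein-coding genes, and 10.3% of the promoters. Those letters stood, on either strand, in the HCCS, FAM174A and KDM7A spans and not in the EOLA2 and ADGRB3 spans. The NRF1 letters GCATGCGC were in 7.87% of the windows, 7.06% of the other head-to-head windows and 3.05% of the promoters, and CCAAT was in 26.8%, 34.9% and 34.6%. The letters AAGGTCA, the core of the element that ERR proteins bind, were in 2 of the 127 windows (1.57%), those of DPH5-DT and TMEM161B-DT, against 2.46% of the other head-to-head windows and 3.92% of the promoters. None of these matches was tested for binding. In the first 1000 transcribed bases the poly(A) signal AATAAA occurred on the sense strand in 57 of 184 members (31%) and 33 of 184 partners (17.9%), and the 5′ splice site letters GGTAAG occurred in 21.2% and 21.7%.

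Depth and libraries bear on every value that follows. Counts on genes were 24969759 to 29700980 in the GFP libraries and 26513620 to 40859666 in the ERRg libraries. Reads that fell on no annotated feature made up 51.3% to 52.2% of all reads in the GFP libraries, but 46.6% in ERRg replicate 2 and 31.6% and 29.5% in ERRg replicates 3 and 4, so this share moved with treatment and also set ERRg replicate 2 apart. Values from a fit with this share as a covariate (the covariate fit) are given for counts and for named genes and ratios whose call it ended. ESRRG, the overexpressed gene, stood at 83.6, 90.4 and 86.9 CPM in the GFP libraries and 570, 772 and 778 CPM in the ERRg libraries (log2 fold change 3.02, SE 0.14, edgeR quasi-likelihood test, adjusted p = 6.3e-07). CPM is the count scaled to a fixed library total after TMM adjustment. In these counts reads of the virus and of the cells' own gene cannot be told apart. By the accession the study gives, the virus carries mouse Esrrg, and how much of its RNA was counted on the human gene was not tested. The submitters call the cells neuronal progenitors. Of 7 adrenergic neuroblastoma markers, the ISL1, HAND2, GATA3, PHOX2A and DBH genes passed the filter on low counts, while TH and CHGA had 0 counts in every library. The summed level of the 7 was 689.6 to 731 CPM without TMM scaling in the GFP libraries and 467 to 524 CPM in the ERRg libraries, and 611 to 661 and 476 to 628 CPM with it. HAND2 made up the largest part, at means of 367 CPM with GFP and 264 CPM with ERRγ. Singly, PHOX2A was called higher (log2 fold change 0.81) and DBH lower (-2.64, from 11.5 to 1.84 CPM), and HAND2, GATA3 and ISL1 were not called. In the covariate fit 0 of these genes were higher and 2 lower. The 8 mesenchymal markers summed to 8527 to 8531 and 6864 to 7736 CPM without TMM scaling, but to 7556 to 7711 and 7672 to 8498 CPM with it, so their direction turned with the scaling. The 6 progenitor markers, with HES5 at 0 and PAX6 untested, summed to 381 to 442 and 426 to 440 CPM without TMM scaling and to 337 to 399.5 and 423 to 528 CPM with it. A count of 0 need not mean that a gene was silent, since CPSF1, which cells in general use, was also at 0. In bulk RNA, fewer cells that make a transcript and less of it per cell cannot be told apart.

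Members were weakly expressed. Their mean level in the GFP libraries ran from 0.829 to 139 CPM with a median of 4.41, and 39 members exceeded 10 CPM. Per kilobase of exon, the partner was above its member in most pairs, with a median ratio of 4.4-fold in the GFP libraries, and 16 members stood above their partner. All 184 members and 183 of the partners passed the filter on low counts. PIWIL2 was the partner that did not. In 99 members no exon base overlapped another annotated gene, and in 4 more than 50% did. The sources used here do not give the strand setting of the counting, so for overlapping members reads of either strand cannot be assigned with certainty.

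The question of the design was whether ERRγ overexpression changed these RNAs, and whether each moved with the gene it is named after. Of the 184 members, 22 were higher with ERRγ and 31 were lower, where a call needed an adjusted p below 0.05 in edgeR's quasi-likelihood test over all 24500 genes and a change of at least 1.5-fold. That is 11.96% higher and 16.8% lower, beside 17.3% higher and 16.8% lower among all genes tested. Other lncRNA genes with 300 or more counts were higher in 6.85% and lower in 29.5%, and all other lncRNA genes tested were higher in 6.28% and lower in 24.0%. The median log2 fold change was -0.10 over members, -0.36 over other lncRNA genes with 300 or more counts and -0.10 over all genes. Fold changes of members ran from -1.45 to 1.70 on the log2 scale.

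Partners leaned upward under TMM scaling, as protein-coding genes in general did. Of 183 partners, 48 were higher (26.2%) and 15 were lower (8.20%), beside 25.9% higher and 12.4% lower among all protein-coding genes tested. The median log2 fold change was 0.14 over partners and 0.12 over protein-coding genes. Scaled by library size alone, 27 partners were higher and 43 lower with a median of -0.19. The ERRg and GFP values of 97 of the 184 members (52.7%) did not overlap, against 58.1% of all genes. Those of 52 of the 53 called members did not overlap, which the call itself favours, since it was made on the same libraries. EOLA1-DT was the called member whose groups overlapped.

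The counts depended on the scaling and on the libraries. With scaling by library size alone the median of all genes moved to -0.42, and 12 members were higher and 65 lower, whereas the share of higher among all calls went from 50.7% to 22.5%. With RLE size factors that share was 58.1% and with DESeq2 59.5%, at a median of -0.03 for all genes. With the share of reads on no feature as a covariate 6 members were higher and 12 were lower, and 4 and 10 of these were among the 22 and 31, while 21 partners were higher and 6 lower. Without ERRg replicate 2, 34 members were higher, and with that library alone against the GFP libraries 14 were higher and 22 were lower. No member was called in the other direction under any of these settings.

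**Figure D1:**
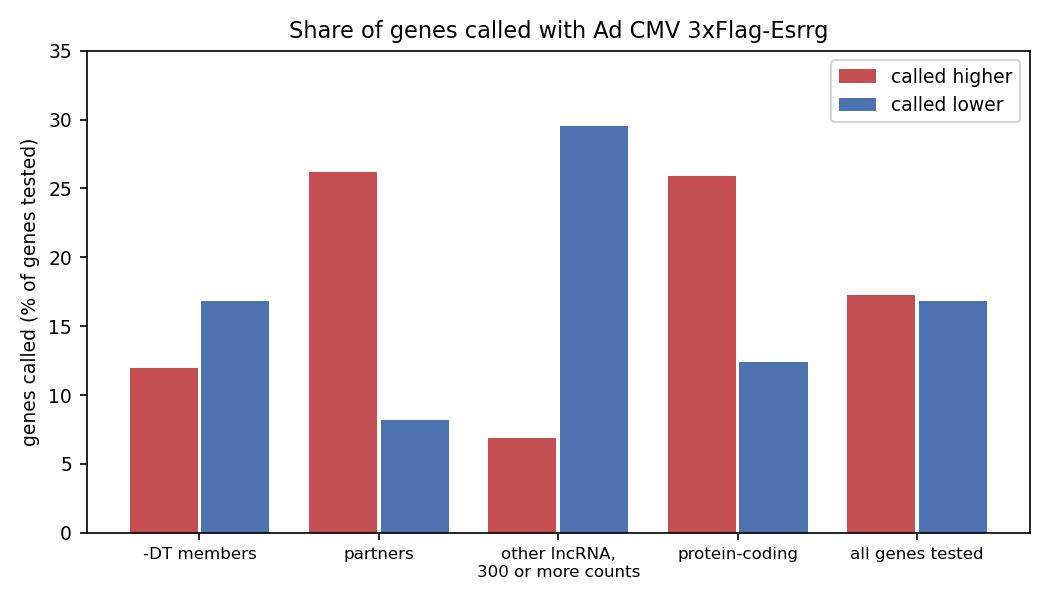
Share of tested genes called higher (red) or lower (blue) with Ad CMV 3xFlag-Esrrg, in percent, for the 184 -DT members, their 183 partners, other lncRNA genes with 300 or more counts, protein-coding genes and all genes tested. The members' bars, 11.96% and 16.8%, lie between those of the other lncRNA genes, 6.85% and 29.5%, and those of the protein-coding genes, 25.9% and 12.4%.

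Pair by pair, both genes were called in 21 of 183 pairs. In 9 pairs both were higher, in 6 both were lower and in 6 they moved in opposite directions. A single gene of the pair was called in 74 pairs, and neither in 88. Among the 22 members that rose, 12 had a partner that was not called, and among the 31 that fell, 20 did. Of the 130 members that were not called, 88 had such a partner. Conversely, 34 partners rose and 8 fell beside a member that was not called. Over the 183 pairs the log2 fold changes of member and partner had a Pearson r of 0.22 and a Spearman rho of 0.26, given as a description, since all points share the same 6 libraries. Over 717 other head-to-head pairs of a lncRNA and a protein-coding gene, which had no limit of 300 counts, the values were 0.34 and 0.31. Leaving out each library in turn, 8 of the 15 same-direction pairs and 3 of the 6 opposite pairs kept both calls. Without ERRg replicate 2 there were 25 same-direction and 11 opposite pairs. Without ERRg replicate 3, 3 pairs were opposite, and without ERRg replicate 4, 9 pairs moved together and 3 were opposite. With the covariate 4 pairs moved together and 0 were opposite.

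**Figure D2:**
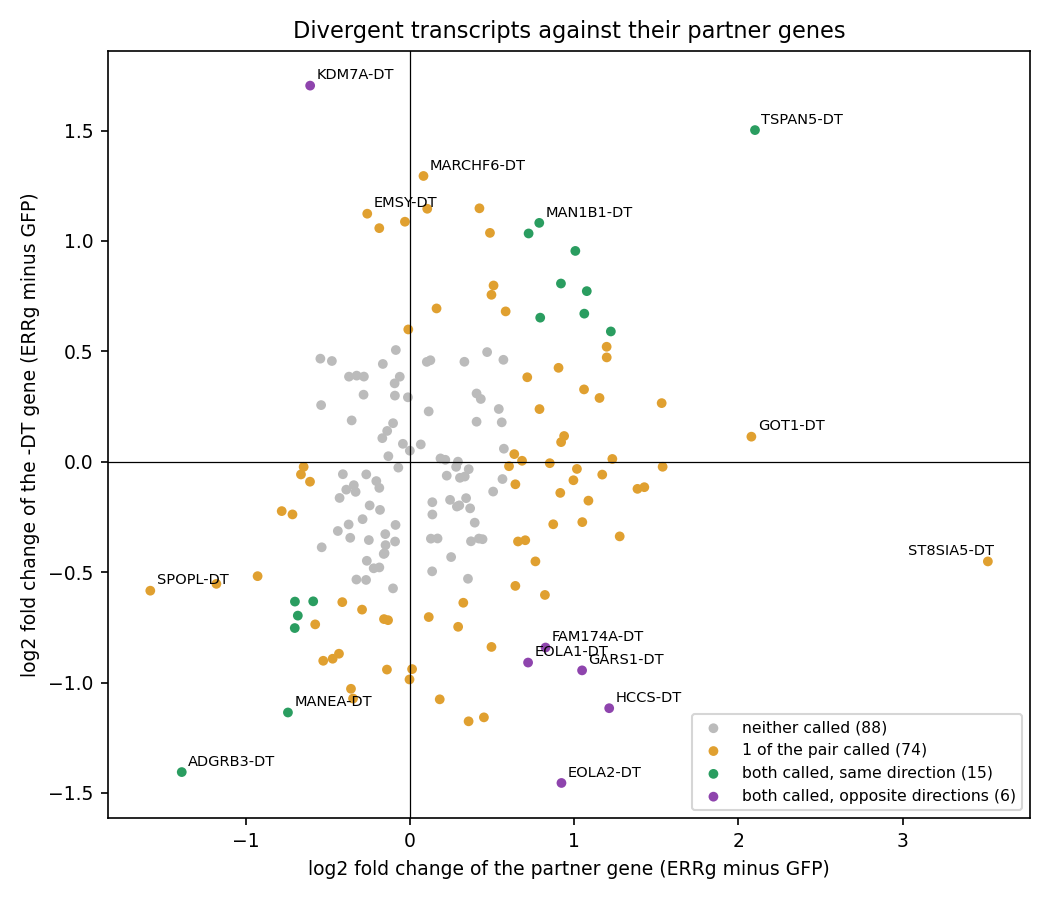
Log2 fold change of each -DT gene (vertical axis) against that of its partner gene (horizontal axis), ERRg minus GFP, for 183 pairs, coloured by which genes were called. KDM7A-DT at the upper left and EOLA2-DT, HCCS-DT, GARS1-DT, FAM174A-DT and EOLA1-DT at the lower right are the 6 pairs called in opposite directions, and TSPAN5-DT at the upper right and ADGRB3-DT at the lower left are the farthest pairs that moved together.

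Among the pairs that moved apart, KDM7A-DT rose most of all members. KDM7A is a histone lysine demethylase, and its divergent transcript (ENSG00000260231, chr7:140177184-140179640, plus strand) starts 201 bases from it. KDM7A-DT had 0.887, 0.905 and 0.695 CPM in the GFP libraries and 2.32, 2.58 and 3.17 CPM in the ERRg libraries, from 23 to 28 and 62 to 108 reads a library. The groups did not overlap, and the log2 fold change was 1.70 (SE 0.23, edgeR adjusted p = 2.4e-04). KDM7A itself had 52.8, 41.0 and 47.7 CPM with GFP and 35.4, 29.0 and 28.6 CPM with ERRγ, a log2 fold change of -0.61 (SE 0.12, adjusted p = 0.0024). This fall stayed close to the 1.5-fold limit, and without GFP replicate 1, ERRg replicate 3 or ERRg replicate 4 it was -0.52, -0.55 and -0.54 and no longer called. Nor was KDM7A called with RLE size factors or DESeq2, at -0.53 each, or in the covariate fit, at -0.30 (adjusted p = 0.0955), whereas KDM7A-DT kept its call in all of these.

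HCCS and its divergent transcript moved the other way around. HCCS is holocytochrome c synthase, the mitochondrial enzyme that attaches heme to cytochrome c. HCCS-DT (ENSG00000234129, chrX:10847578-11111220, minus strand, start 112 bases away) had 2.84, 2.59 and 3.90 CPM with GFP and 1.83, 1.52 and 0.998 CPM with ERRγ, so that all ERRg libraries were below all GFP libraries (log2 fold change -1.12, SE 0.26, edgeR adjusted p = 0.0051). HCCS had 22.9, 26.9 and 26.7 CPM with GFP and 42.6, 67.9 and 66.9 CPM with ERRγ (1.21, SE 0.17, adjusted p = 2.6e-04). In both genes ERRg replicate 2 lay nearest to the GFP libraries. In the covariate fit neither gene was called, with HCCS-DT at -0.55 (edgeR adjusted p = 0.319) and HCCS at 0.53, below 1.5-fold.

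GARS1-DT was the most abundant member, with 19528 counts in all. GARS1 is the glycyl-tRNA synthetase of cytosol and mitochondria. GARS1-DT (ENSG00000196295, chr7:30516309-30595286, minus strand) had 145, 137 and 136 CPM with GFP and 89.4, 65.0 and 62.7 CPM with ERRγ, a log2 fold change of -0.94 (SE 0.13, edgeR adjusted p = 3.1e-04). GARS1 had 136, 161 and 153 CPM with GFP and 264, 346 and 321 CPM with ERRγ (1.05, SE 0.12, adjusted p = 1.2e-04). No GFP library overlapped an ERRg library in either gene. GARS1-DT was at -0.48 in the covariate fit, below 1.5-fold, and GARS1 kept its call. The canonical GARS1-DT transcript starts 32053 bases from that of GARS1, although the annotated gene reaches across the GARS1 start, and 4.54% of its exon bases overlap another gene.

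EOLA2-DT fell most of all members while EOLA2, which encodes a protein with an ASCH domain, rose. EOLA2-DT (ENSG00000235703, chrX:149938613-150224580, plus strand) had 26.7, 22.9 and 25.4 CPM with GFP and 13.1, 7.78 and 6.66 CPM with ERRγ (log2 fold change -1.45, SE 0.21, edgeR adjusted p = 3.4e-04). EOLA2 had 8.05, 9.86 and 9.97 CPM with GFP and 13.4, 19.9 and 19.5 CPM with ERRγ (0.92, SE 0.16, adjusted p = 0.0011). EOLA1 and EOLA2 are near-identical copies, so the counts of both genes are uncertain. EOLA1-DT, of which 57.0% of the exon bases overlap another gene, had 3.41, 1.97 and 2.30 CPM with GFP and 2.17, 1.01 and 0.969 CPM with ERRγ (-0.91, SE 0.33, adjusted p = 0.043), with overlapping groups. EOLA1 changed by 0.72 (SE 0.18, adjusted p = 0.0081). Without GFP replicate 1, GFP replicate 4, ERRg replicate 3 or ERRg replicate 4 the EOLA1-DT value was -0.65, -0.98, -0.72 and -0.70 and no longer passed. It missed the threshold with RLE size factors as well (-0.84, adjusted p = 0.0517). EOLA2-DT kept its call in the covariate fit, but EOLA2 (0.34), EOLA1 (0.12) and EOLA1-DT (0.17) did not, and with library size alone EOLA2 and EOLA1 were at 0.58 and 0.38 and not called.

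In the FAM174A pair, FAM174A-DT (ENSG00000247877, chr5:100428124-100535262, minus strand) had 2.27, 2.97 and 2.51 CPM with GFP and 2.02, 1.40 and 0.969 CPM with ERRγ, a log2 fold change of -0.84 (SE 0.27, edgeR adjusted p = 0.023). The highest ERRg library lay just below the lowest GFP library. FAM174A, which encodes a membrane protein, had 10.1, 10.4 and 10.7 CPM with GFP and 15.6, 19.99 and 19.7 CPM with ERRγ (0.83, SE 0.12, adjusted p = 3.9e-04). FAM174A-DT was not called without GFP replicate 3 or 4 or ERRg replicate 3 or 4, with adjusted p of 0.094, 0.0585, 0.0794 and 0.0802 in turn. Neither gene was called in the covariate fit, with FAM174A-DT at -0.10 (adjusted p = 0.882) and FAM174A at 0.48, and with library size alone FAM174A was at 0.49, below 1.5-fold.

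**Figure D3:**
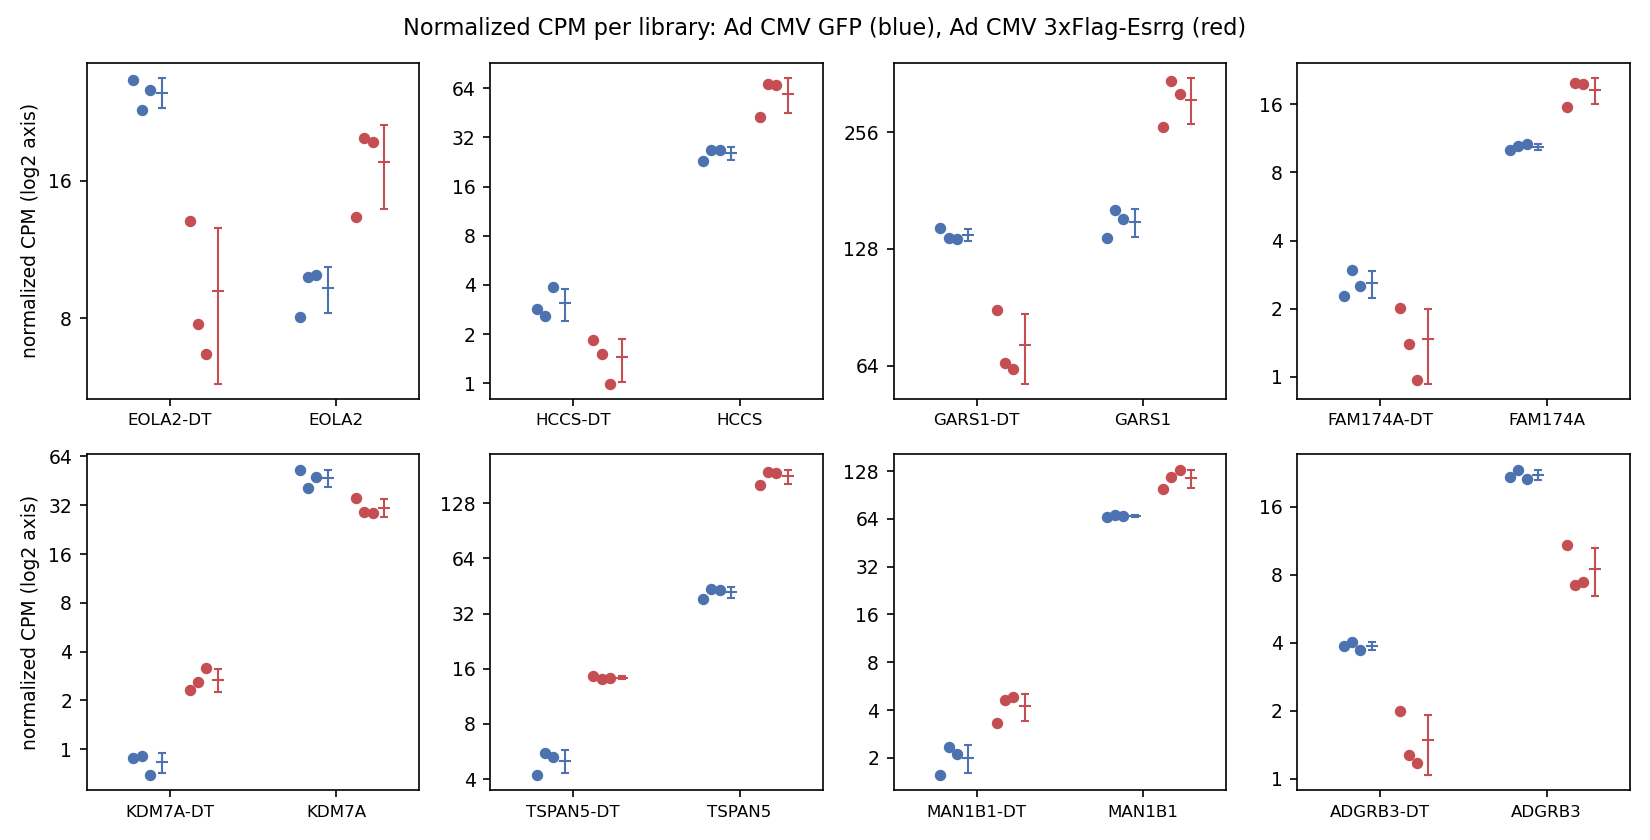
Normalized CPM on a log2 axis of 8 -DT genes and their partners in each library, with GFP in blue and ERRγ in red, points for libraries (in the order of replicate number) and bars for mean ± SD of 3. EOLA2-DT, HCCS-DT, GARS1-DT and FAM174A-DT fell beside partners that rose, KDM7A-DT rose beside a partner that fell, TSPAN5-DT and MAN1B1-DT rose with their partners and ADGRB3-DT fell with its partner.

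TSPAN5 and its divergent transcript rose together and by the most. TSPAN5 is a tetraspanin of the plasma membrane that binds the protease ADAM10. TSPAN5-DT (ENSG00000260641, chr4:98658894-98664550, plus strand, start 283 bases away) had 4.22, 5.56 and 5.32 CPM with GFP and 14.6, 14.1 and 14.2 CPM with ERRγ (log2 fold change 1.502, SE 0.13, edgeR adjusted p = 2.9e-05). Here ERRg replicate 2 was level with the other ERRg libraries. TSPAN5 had 38.6, 43.5 and 43.2 CPM with GFP and 161, 189 and 188 CPM with ERRγ (2.10, SE 0.11, adjusted p = 9.7e-07). The value of TSPAN5-DT was 1.53 (adjusted p = 1.1e-08) with the covariate.

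The other pairs that rose together had partners of varied roles. MAN1B1-DT had 1.56, 2.33 and 2.11 CPM with GFP and 3.29, 4.60 and 4.81 CPM with ERRγ (log2 fold change 1.08, SE 0.22, edgeR adjusted p = 0.0023). MAN1B1, a mannosidase that marks misfolded glycoproteins for degradation, rose from 66.8 ± 1.15 to 115 ± 15.4 CPM (SD, n = 3), by 0.79. ATP6AP1-DT rose by 0.95 and ATP6AP1, an accessory subunit of the V-ATPase that acidifies lysosomes, by 1.01. For CNN3, an actin-binding calponin, the values were 0.81 for the divergent transcript and 0.92 for the gene. For ZC3H12A, an endoribonuclease of inflammatory mRNAs, they were 0.77 and 1.08. MRPL20-DT, ZNF584-DT and CD2BP2-DT were also among the 9. With the covariate, TSPAN5-DT and ZC3H12A-DT kept their call and the other 7 -DT genes of these pairs did not, among them MAN1B1-DT at 0.53, ATP6AP1-DT at 0.49 and CNN3-DT at 0.53. MAN1B1 and CNN3 were at 0.45 and 0.54 in that fit, below 1.5-fold. With library size alone ZC3H12A-DT, CNN3-DT and MAN1B1 were at 0.45, 0.48 and 0.46 and not called.

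ADGRB3 and its divergent transcript fell together. ADGRB3 is an adhesion G protein-coupled receptor of neurons. ADGRB3-DT (ENSG00000230910, chr6:68627879-68635169, minus strand, start 146 bases away) had 3.87, 4.04 and 3.72 CPM with GFP and 1.98, 1.28 and 1.17 CPM with ERRγ (log2 fold change -1.41, SE 0.22, edgeR adjusted p = 5.5e-04). ADGRB3 had 21.6, 23.3 and 21.3 CPM with GFP and 10.8, 7.16 and 7.45 CPM with ERRγ (-1.39, SE 0.15, adjusted p = 8.6e-05). Neither gene's groups overlapped. ADGRB3-DT was at -0.75 and did not pass in the covariate fit (edgeR adjusted p = 0.0903), while ADGRB3 kept its call.

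The MANEA pair also fell, MANEA-DT from 3.43 ± 0.586 to 1.55 ± 0.294 CPM (SD, n = 3; log2 fold change -1.14) and MANEA, a Golgi endomannosidase, by -0.74. In the other 4 pairs the changes were smaller. AHI1-DT had -0.75 and AHI1, a cilium protein, -0.70. HEATR5A-DT had -0.70 and HEATR5A -0.68, with 46.6% of the exon bases of HEATR5A-DT overlapping another gene. SETBP1-DT had -0.63 and SETBP1, which binds the SET oncoprotein, -0.70, and ZNF470-DT had -0.63 and ZNF470, a zinc finger protein, -0.59. At least 1 left-out library took away the call of each of these 4 members. AHI1-DT had an adjusted p of 0.0594 to 0.0806 without GFP replicate 1 or 3 or ERRg replicate 3 or 4, and HEATR5A-DT 0.0791 to 0.112 without the same libraries. SETBP1-DT missed a threshold without GFP replicate 3 or 4 or ERRg replicate 2, at -0.54, -0.60 and -0.51, and ZNF470-DT without GFP replicate 1 or 4 or ERRg replicate 2 or 4, at -0.55, -0.58, -0.50 and -0.57. With RLE size factors or DESeq2 both SETBP1-DT and ZNF470-DT were at -0.55 and ZNF470 at -0.51, all below 1.5-fold. None of these 4 members was called in the covariate fit, where AHI1-DT was at 0.02, HEATR5A-DT at -0.09, SETBP1-DT at -0.69 (adjusted p = 0.0814) and ZNF470-DT at -0.65 (adjusted p = 0.17). Their partners AHI1, SETBP1 and ZNF470 (-0.14, -0.51 and -0.48) and MANEA (-0.32) lost their call in it too, but MANEA-DT and HEATR5A did not.

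Of the called members, 12 that rose and 20 that fell moved beside a partner that did not pass. Over all 183 partners, 120 were not called. MARCHF6-DT had 2.06, 1.88 and 2.51 CPM with GFP and 3.67, 5.50 and 6.60 CPM with ERRγ (log2 fold change 1.29, SE 0.23, edgeR adjusted p = 0.0012). MARCHF6, a ubiquitin ligase of the endoplasmic reticulum, was at 289 ± 6.41 and 306 ± 8.93 CPM (SD, n = 3; 0.08, adjusted p = 0.48). Of the MARCHF6-DT exon bases, 7.1% overlap another gene. EMSY-DT had 4.43, 3.72 and 3.47 CPM with GFP and 6.06, 9.95 and 9.19 CPM with ERRγ (1.12, SE 0.20, adjusted p = 0.0011), and EMSY, a chromatin protein that binds BRCA2, went from 47.2 ± 0.773 to 39.5 ± 2.08 CPM, a change of -0.26 that missed the 1.5-fold limit. In both members ERRg replicate 2 was the lowest of the ERRg libraries yet above every GFP library. Neither was called in the covariate fit, at 0.52 (edgeR adjusted p = 0.195) for MARCHF6-DT and 0.48 (adjusted p = 0.125) for EMSY-DT.

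PCCA-DT had 3.76, 4.91 and 4.41 CPM with GFP and 6.96, 9.95 and 10.3 CPM with ERRγ (log2 fold change 1.06, SE 0.18, edgeR adjusted p = 8.5e-04), beside PCCA at -0.19 (adjusted p = 0.12). PCCA is a subunit of propionyl-CoA carboxylase, a mitochondrial enzyme of amino acid and odd-chain fatty acid breakdown. INSIG1-DT rose by 1.15 beside INSIG1, which holds back cholesterol synthesis, at 0.42 (adjusted p = 0.0051, below 1.5-fold). MAP2K5-DT rose by 1.15 beside the kinase gene MAP2K5 at 0.11, and ITGB1-DT by 1.09 beside ITGB1, the integrin beta 1 gene, at -0.03 (adjusted p = 0.83). ITGB1-DT lies wholly inside other annotated gene bodies, and 9.44% of its exon bases overlap. In the covariate fit PCCA-DT, INSIG1-DT and MAP2K5-DT were at 0.49, 0.52 and 0.58 (edgeR adjusted p = 0.0854, 0.204 and 0.263) and not called, and ITGB1-DT kept its call. The remaining members that rose beside a partner without a call were FBN1-DT, ZFAND2A-DT, IRF2-DT, TRIM8-DT, TBC1D22A-DT and RNASEH1-DT, and every exon base of TRIM8-DT overlaps another gene.

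Among members that fell beside a partner without a call, NUDT16-DT had 6.03, 6.34 and 5.05 CPM with GFP and 3.14, 2.26 and 2.44 CPM with ERRγ (log2 fold change -1.16, SE 0.18, edgeR adjusted p = 5.6e-04). NUDT16, a Nudix hydrolase that removes RNA caps, had 37.6 ± 0.928 and 51.4 ± 5.57 CPM (SD, n = 3; 0.45, below 1.5-fold). SUCLG2-DT had 11.5, 12.1 and 10.5 CPM with GFP and 6.21, 4.49 and 5.46 CPM with ERRγ (-1.08, SE 0.15, adjusted p = 2.5e-04), beside SUCLG2, the GTP-forming subunit of succinyl-CoA ligase in the citric acid cycle, at 0.18 (adjusted p = 0.14). For both divergent transcripts the lowest GFP library was well above the highest ERRg library.

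GMDS-DT had 30.4, 21.4 and 23.6 CPM with GFP and 12.9, 11.1 and 11.9 CPM with ERRγ (log2 fold change -1.07, SE 0.14, edgeR adjusted p = 2.0e-04), beside GMDS, the first enzyme of GDP-fucose synthesis, at -0.35 (adjusted p = 0.036). MRPS30-DT fell from 2.49 ± 0.426 to 1.12 ± 0.297 CPM (SD, n = 3; -1.18, adjusted p = 0.0028) beside MRPS30, a mitochondrial ribosome protein, at 0.36. NUDT16-DT, SUCLG2-DT and GMDS-DT were also called with the covariate, as were EOLA2-DT, MANEA-DT, ITGB1-DT and KDM7A-DT. MRPS30-DT was not, at -0.62 (adjusted p = 0.281). GMDS itself was called lower in that fit, at -0.65, and with library size alone, at -0.68. The other members that fell beside a partner without a call included USP38-DT, ZRANB2-DT, MAD2L1-DT, PKD2L2-DT, DPH6-DT, EPM2A-DT, H3-3A-DT, GALNT7-DT, SEPTIN7-DT, FBXO38-DT, SAP30-DT, COPB2-DT, B4GAT1-DT, RIPK2-DT and FAM151B-DT, and 60.6% of the exon bases of FAM151B-DT overlap another gene.

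The most abundant members were measured with most reads. After GARS1-DT, by mean CPM, came RIPK2-DT, TMEM161B-DT, SLC12A2-DT, ISL1-DT and UBA6-DT, with 7574 to 12048 counts each. RIPK2-DT had 80.9, 81.2 and 76.6 CPM with GFP and 67.2, 47.5 and 38.9 CPM with ERRγ (log2 fold change -0.64, SE 0.17, edgeR adjusted p = 0.0094), while RIPK2, a kinase of innate immune signalling, stood at 0.32 (adjusted p = 0.028, below 1.5-fold). Without ERRg replicate 4 the RIPK2-DT value was -0.47, and without ERRg replicate 3 it was -0.58, both below 1.5-fold. It was -0.57 with RLE size factors and with DESeq2, also below 1.5-fold, and -0.02 (adjusted p = 0.926) in the covariate fit. TMEM161B-DT, at 82.4, 74.2 and 66.5 CPM with GFP and 67.8, 43.6 and 42.6 CPM with ERRγ, missed the 1.5-fold limit (-0.54, adjusted p = 0.024), with TMEM161B at -0.27. With library size alone TMEM161B-DT was called, at -0.83, and in the covariate fit it was at 0.08.

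ISL1 is a LIM-homeodomain transcription factor of sympathetic neurons. ISL1-DT had 53.9, 52.9 and 52.0 CPM with GFP and 39.4, 38.3 and 41.2 CPM with ERRγ, groups that did not overlap, at a log2 fold change of -0.42 (SE 0.09, edgeR adjusted p = 0.0027), below 1.5-fold, though -0.74 and called with library size alone. ISL1 had 83.6 ± 1.86 and 74.9 ± 6.83 CPM (SD, n = 3; -0.16, adjusted p = 0.19). SLC12A2-DT, beside the chloride transporter gene SLC12A2, was at 59.1 ± 1.62 and 55.7 ± 4.60 CPM (-0.09, adjusted p = 0.46), and UBA6-DT, beside the ubiquitin-activating enzyme gene UBA6, at 44.1 ± 3.60 and 37.9 ± 7.20 CPM (-0.22, adjusted p = 0.20). SLC12A2 and UBA6 had -0.21 and -0.18.

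A difference between member and partner was tested directly as the change of the log2 ratio of their CPM within each library, with limma over 900 pairs (the 183 member pairs and 717 other head-to-head pairs). This value does not depend on the scaling of the library. The ratio of -DT gene to partner was higher with ERRγ in 18 member pairs (9.84%) and lower in 58 (31.7%), where a call again needed an adjusted p below 0.05 and 1.5-fold. Over all 900 pairs 9.67% were higher and 20.9% lower, and over the 717 other pairs 9.62% were higher and 18.1% lower. The other pairs only had to pass the filter on low counts, without the limit of 300 counts set for members. Their shares and median are thus not matched for depth, and whether member pairs differ from them at equal depth was not tested. The median change was -0.28 over member pairs and -0.14 over the other pairs. Of the 58 lower ratios, 32 went with a partner called higher and a member not called lower, 12 with a member called lower and a partner not called higher, 5 with both and 9 with neither. With the covariate 5 ratios were higher and 18 lower, and without GFP replicate 1 or ERRg replicate 4 10 ratios were higher in place of 18.

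Among the lower ratios, that of ST8SIA5-DT rests on few reads of its partner. ST8SIA5, a sialyltransferase of ganglioside synthesis, had 5, 4 and 2 counts in the GFP libraries and 35, 47 and 52 in the ERRg libraries. It thus passed the filter on low counts only through the ERRg libraries, and its call is not given as support. The pair was still kept in the counts of partners and ratios and in the correlations. ST8SIA5-DT, which starts 114 bases inside the gene, had 3.58, 3.88 and 4.38 CPM with GFP and 3.97, 2.23 and 2.55 CPM with ERRγ, a change of -0.45 that did not pass (edgeR adjusted p = 0.12). The log2 ratio change was -3.50 with a prior count of 2 and -3.94 with one of 0.5, so its size depends on the prior count. The ratio change was -2.40 for EOLA2, -2.27 for HCCS, -2.003 for GARS1, -1.66 for FAM174A and -1.60 for EOLA1, each called. The ratios of FAM174A and EOLA1 were not called in the covariate fit, at -0.55 and 0.06.

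Among the higher ratios, KDM7A-DT led with a log2 ratio change of 2.23 (SE 0.25, limma adjusted p = 1.7e-05). EMSY-DT followed with 1.34 and PCCA-DT with 1.22, and MARCHF6-DT, ITGB1-DT, MAP2K5-DT and INSIG1-DT had 1.15, 1.11, 0.98 and 0.68. The ratio of INSIG1-DT was not called without GFP replicate 1 or ERRg replicate 4, at 0.55 and 0.56. In the covariate fit the ratios of KDM7A-DT and ITGB1-DT kept their call, and those of EMSY-DT, PCCA-DT, MARCHF6-DT, MAP2K5-DT and INSIG1-DT did not, at 0.61, 0.59, 0.37, 0.54 and 0.32. Of the members that fell beside an uncalled partner, NUDT16-DT had -1.58, MRPS30-DT -1.48, SUCLG2-DT -1.25, RIPK2-DT -0.99 and GMDS-DT -0.70, and the last was not called without GFP replicate 1 (-0.52). The ratios of NUDT16-DT and SUCLG2-DT kept their call with the covariate, and those of MRPS30-DT, RIPK2-DT and GMDS-DT did not, at -0.67, -0.10 and -0.25. In 13 of the 15 pairs that moved together the ratio was not called, which does not show that both genes moved equally. The exceptions were TSPAN5, at -0.59 (adjusted p = 0.0054), and MRPL20, in both of which the gene rose further than its divergent transcript. The TSPAN5 ratio missed 1.5-fold without GFP replicate 3 or 4 or ERRg replicate 3 or 4, at -0.54 to -0.58, and was -0.34 (adjusted p = 0.334) in the covariate fit.

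The partners were sorted by what their products do, with the groups drawn up after the values of these data were known, so their counts are descriptions. They stand beside 26.2% higher and 8.20% lower over all partners, 11.96% and 16.8% over all members and 9.84% and 31.7% over all member ratios, and beside 17.3% and 16.8% over all genes tested. The group of 11 partners with mitochondrial products had the lowest median ratio change. In it 6 partners were higher and 0 lower (median log2 fold change 0.87), and 2 members were higher and 4 lower (median -0.28). The ratio was lower in 9 pairs and higher in 1, that of PCCA, with a median of -1.16. BOLA3, a factor of iron-sulfur cluster assembly, had 2.91, 3.01 and 2.72 CPM with GFP and 6.58, 9.36 and 8.98 CPM with ERRγ (1.53, SE 0.17, edgeR adjusted p = 9.2e-05). BOLA3-DT was at 14.3 ± 0.773 and 17.2 ± 2.25 CPM (SD, n = 3; 0.27, adjusted p = 0.09).

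MRPL20, a mitochondrial ribosome protein, rose by 1.22 and MRPL20-DT by 0.59, the latter not called without GFP replicate 1 (0.53) or ERRg replicate 4 (0.56). TMEM11, which shapes mitochondrial cristae, rose by 1.06 and COX10, the heme O synthase needed for cytochrome c oxidase, by 0.87, while TMEM11-DT was at 0.33 (adjusted p = 0.099) and COX10-DT at -0.28 (adjusted p = 0.08). The log2 ratio changes were -1.24 for BOLA3, -1.16 for COX10, -0.71 for TMEM11 and -0.61 for MRPL20. In the covariate fit BOLA3 and GARS1 kept their call, and HCCS, COX10, TMEM11 and MRPL20 were at 0.53, 0.55, 0.42 and 0.57, below 1.5-fold. TMEM11-DT was called higher in that fit, at 0.64, and MRPL20-DT was at 0.47 and not called. COX10 and MRPL20-DT were also not called with library size alone, at 0.54 and 0.27. With the covariate the ratios of HCCS, GARS1 and BOLA3 kept their call, and those of COX10, TMEM11, MRPL20 and ACAD9 were at -0.45, 0.21, -0.11 and -0.39 and not called. The TMEM11 ratio was not called without GFP replicate 1 or 4 or ERRg replicate 3 or 4, at -0.48 to -0.64, nor the MRPL20 ratio without ERRg replicate 3 or 4, at -0.53 each. ACAD9, an assembly factor of complex I, was at 0.14 with ACAD9-DT at -0.50, and the ratio change of -0.62 was not called without GFP replicate 4 or ERRg replicate 3, at -0.56 and -0.54. MFF, the mitochondrial receptor of the fission protein DRP1, was at 0.34 with MFF-DT at -0.16 and a ratio change of -0.50 (limma adjusted p = 0.11).

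**Figure D4:**
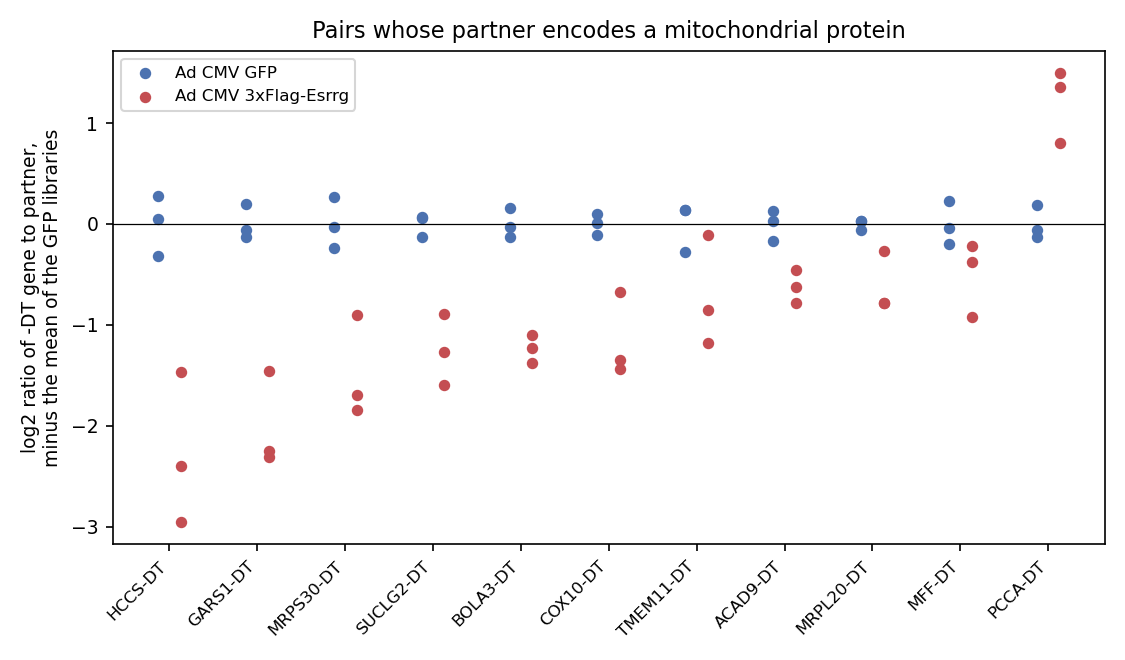
Log2 ratio of -DT gene to partner in each library, minus the mean of the GFP libraries, for the 11 pairs whose partner has a mitochondrial product (blue, GFP, and red, ERRγ, 3 libraries each). The ERRg libraries lie below 0 in 10 pairs and above 0 for PCCA-DT, and HCCS-DT and GARS1-DT have the lowest means, at -2.27 and -2.003.

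In the other groups the median ratio change was nearer to 0. Of 37 partners in transcription and chromatin, 4 were higher and 5 lower, with 4 members higher and 4 lower, and 3 ratios were higher and 5 lower. Both shares of members were below those over all 184 members. PRMT5, an arginine methyltransferase, rose by 1.28 with a ratio change of -1.58. Of 17 partners in RNA processing and translation, 8 were higher and 0 lower, with 2 members higher and 2 lower, and 6 ratios were lower and 0 higher. RRS1, a ribosome biogenesis factor, rose by 1.43 with a ratio change of -1.56. Of 10 partners in membrane traffic and lysosomes, 5 were higher and 1 lower, with 1 member higher and 1 lower, and 5 ratios were lower and 1 higher.

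Of 11 partners in the ubiquitin system, 0 were higher and 2 lower, with 2 members higher and 2 lower, and the median ratio change was 0.25. SPOPL, an adaptor of a cullin ubiquitin ligase, fell most of all partners, by -1.58, with a ratio change of 0.99. Outside these groups GOT1, the cytosolic aspartate aminotransferase, rose by 2.08 with a ratio change of -1.95. The ratios of PRMT5 and RRS1 were -0.66 and -0.30 in the covariate fit and not called, and those of SPOPL and GOT1 kept their call. These 4 genes (PRMT5, RRS1, SPOPL and GOT1) were named after their values were seen.

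The protein machinery that ends, processes or degrades divergent transcripts also had changed genes, described here by counts. All genes of these lists are protein-coding. Among protein-coding genes tested 25.9% were higher and 12.4% lower, with a median of 0.12, and over all genes 17.3% and 16.8%, with a median of -0.10. Of 15 genes of the RNA exosome, the nuclear and cytoplasmic RNA-degrading complex, 4 were higher and 0 lower (median 0.18). EXOSC4 rose from 7.48 to 22.1 CPM (log2 fold change 1.56, SE 0.17) and EXOSC5, EXOSC7 and EXOSC2 by 1.25, 0.89 and 0.71, whereas DIS3, a catalytic subunit, had -0.44, below 1.5-fold. All 3 U1 snRNP proteins rose, SNRPC by 1.27, SNRPA by 0.89 and SNRNP70 by 0.80. The direction of the exosome list turned with the scaling. Its summed level was 587 to 613 CPM with GFP and 525 to 551 CPM with ERRγ without TMM scaling, and 520.1 to 554 and 546 to 637 CPM with it. With library size alone 2 exosome genes were higher and 2 lower (median -0.14), and 1 U1 snRNP protein was called higher. In the covariate fit 1 exosome gene was higher (median 0.02) and 0 U1 snRNP proteins were called.

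In the NEXT, PAXT and cap-binding group, which hands nuclear RNA to the exosome, ZFC3H1, the core of PAXT, fell from 253 to 120 CPM (log2 fold change -1.08, SE 0.15), while SRRT and ZC3H18 rose by 0.79 and 0.75, so that 2 of 11 were higher and 1 lower (median -0.06). Of 15 tested Integrator and Restrictor genes 4 were higher and 0 lower (median 0.12), among them INTS11, the endonuclease of Integrator, with 0.79, and INTS5 with 1.00, while ZC3H4 of Restrictor was at 0.35. Of 15 tested cleavage and polyadenylation genes 3 were higher, CSTF2, CLP1 and CPSF4, and 0 lower (median 0.14). INTS3 and CPSF1, with 1 and 0 counts, were not tested. With library size alone the medians of these 3 lists were -0.39, -0.21 and -0.19, with 0, 2 and 0 genes higher and 2, 1 and 0 lower. With the covariate 1 of their genes was called, higher, in the Integrator and Restrictor list. The part of these genes in the levels of the members was not tested.

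Library by library, ERRg replicates 3 and 4, which had the lowest shares of reads on no feature, lay farther from the GFP mean than ERRg replicate 2. The order did not hold between these 2 libraries, since replicate 4 had the lower share and the smaller deviation. The median over members of log2 CPM minus the GFP mean was -0.04 in ERRg replicate 2, -0.16 in replicate 3 and -0.10 in replicate 4, and over partners it was 0.09, 0.22 and 0.22. In the GFP libraries both medians lay between -0.01 and 0.02. The members together took 0.175% to 0.180% of counts on genes in the GFP libraries, 0.148% in ERRg replicate 2 and 0.115% to 0.116% in ERRg replicates 3 and 4. Whether the share of reads on no feature has a part in these differences cannot be told apart from the treatment in replicates 3 and 4.

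**Figure D5:**
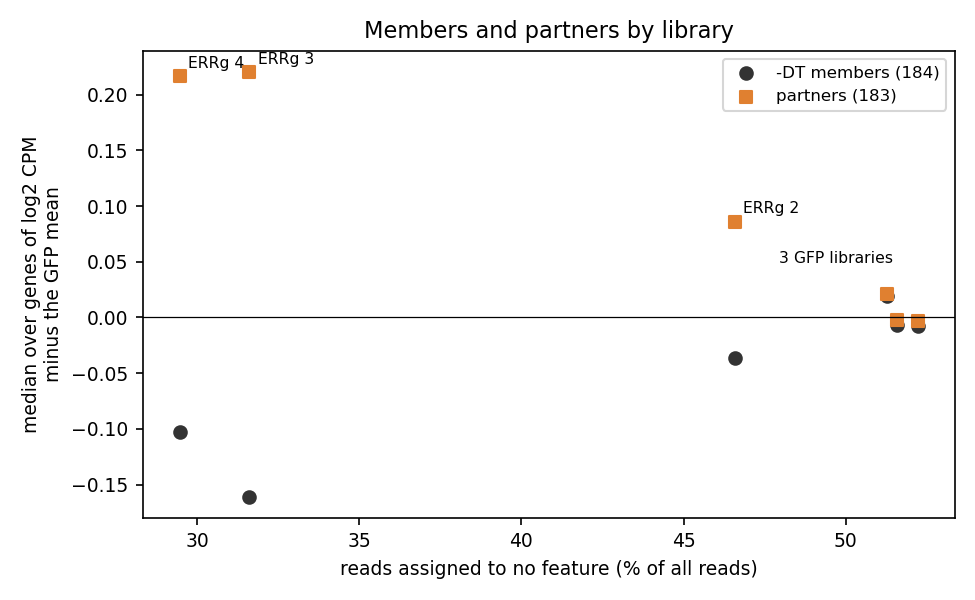
Median over 184 members (circles) and 183 partners (squares) of log2 CPM minus the GFP mean in each library, against the percentage of reads assigned to no feature. ERRg replicates 3 and 4, at 31.6% and 29.5%, have the lowest member medians and the highest partner medians, and ERRg replicate 2, at 46.6%, lies between them and the GFP libraries.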

How the data were processed

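Total RNA of SH-SY5Y cells (3 libraries per group) was rRNA-depleted and sequenced with a directional kit. The authors deposited raw read counts per gene, and the submitters' processing notes name CASAVA, Trim Galore 0.6.7, STAR 2.7.9a, HTSeq 0.11.3, DESeq2 and GRCh38. The annotation release, the strand setting and whether libraries came from separate cultures are not given in the sources used here, so p-values measure the spread between these libraries, which may be technical. Genes took 36.0% to 47.7% of the entries of a library, and the rows for reads on no feature, ambiguous or multiply mapped were left out of library sizes, and the number of per-sample columns not used was 0.

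Identifiers were matched without version to GENCODE release 44 (60419 of 67060, 90.1%). Counts were fitted in R 4.3.3 with edgeR 4.0.16 (TMM, filterByExpr, quasi-likelihood test, Benjamini-Hochberg adjustment over 24500 genes). A call needed an adjusted p below 0.05 and 1.5-fold. Ratios used log2 CPM with a prior count of 2 in limma 3.58.1 (empirical Bayes). DESeq2 1.42.0 was an alternative, and the others were RLE or library-size scaling, other filters, fold limits and prior counts, a covariate, a replicate block and leaving out each library. The fits were tested on simulated data.

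Members, gene lists and named genes were chosen with earlier results of these data known. Genes named were the 8 members with the largest call in each direction, all opposite pairs, the top 6 same-direction pairs each way, the 6 most abundant members, the 4 most extreme ratios each way, the genes beside the count limit, ESRRG and list genes with large changes. Some items that this rule names are not reported here. Promoter sequences came from RefSeq, and genome sequence from GRCh38. No 2 replicates agreed within sampling noise (chi-square per degree of freedom 3.49 to 66.0).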

Additional observations from a re-analysis of the deposited data

How the results depend on the processing

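No member was called in the other direction under any alternative, and 35 of the 53 called members kept their call in all 6 fits without 1 library. Over those fits members higher ranged from 17 to 34, members lower from 22 to 33, partners higher from 46 to 67, partners lower from 11 to 17, same-direction pairs from 9 to 25, opposite pairs from 3 to 11, higher ratios from 10 to 25 and lower ratios from 45 to 68, and the ESRRG value from 2.96 to 3.26. Scaling by library size alone gave 12 members higher and 65 lower, 27 partners higher and 43 lower, and 25 same-direction pairs. With the share of reads on no feature as a covariate 6 members were higher and 12 lower, 21 partners higher and 6 lower, 4 pairs moved together and 0 were opposite, and 5 ratios were higher and 18 lower. ERRg replicate 2 alone against the GFP libraries, an alternative chosen after seeing the data, gave 14 members higher, 5 partners lower, 5 same-direction and 2 opposite pairs, and 8 higher ratios. Without the fold limit 81 partners were higher and 41 lower, with 31 same-direction and 17 opposite pairs. With a 2-fold limit 11 members were higher and 9 lower, 23 partners higher and 3 lower, 2 pairs moved together and 1 was opposite. The 75 members with 1000 or more counts included 10 higher and 13 lower, with 18 partners higher and 4 lower, 6 same-direction and 2 opposite pairs. The 99 members without exon overlap included 16 higher and 12 lower, beside 22 higher and 31 lower over all 184 members. Their partners included 27 higher and 10 lower, with 12 same-direction and 3 opposite pairs. Without exon overlap more members were thus higher than lower, whereas over all members more were lower. Both of these last settings keep fewer members, and the cause of the changes was not tested in any setting.

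Replicate numbers 3 and 4 are shared by both groups. The deviations of same-numbered libraries from their group means had r = 0.075 and -1e-04. In the ERRg group these deviations mostly set replicate 2 against replicates 3 and 4. Chi-square per degree of freedom was 62.0 and 66.0 against replicate 2 and 6.71 between replicates 3 and 4. These values therefore cannot show whether the numbers pair libraries. A fit with the replicate block, in which GFP replicate 1 and ERRg replicate 2 have no counterpart and the other 4 libraries alone set the difference, gave 12 opposite pairs and an ITGB1 value of 0.017. Of 1326 alternative values of 111 named changes, 1162 kept direction and side of the threshold, 121 lost it, 16 gained it and 27 changed sign, none of these past the threshold. ITGB1 was at 0.048 with RLE size factors and with DESeq2. Without 1 library ITGB1 ranged from -0.061 to 0.090, ISL1 from -0.20 to 0.022 and MFF-DT from -0.27 to 0.011. With library size alone ACAD9 was at -0.19, BOLA3-DT at -0.064, MAP2K5 at -0.22, MARCHF6 at -0.23, RIPK2 at -0.0027 and SUCLG2 at -0.14. With the covariate ACAD9 was at -0.041, SUCLG2 at -0.034, AHI1-DT at 0.022, COX10-DT at 0.10, EOLA1-DT at 0.17, SLC12A2-DT at 0.11, ST8SIA5-DT at 0.20, TMEM161B at 0.27, TMEM161B-DT at 0.080, UBA6 at 0.11 and UBA6-DT at 0.22, and the ratio changes of EOLA1-DT and TMEM11-DT at 0.060 and 0.21. Depth limits the weakest members most, since KDM7A-DT rests on 23 to 108 reads a library.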

Other observations

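The 404 -DT genes below 300 summed counts were not part of the comparisons above. Of them 180 passed the filter on low counts, and 24 of these were higher and 12 lower in edgeR's quasi-likelihood test. Both shares were below the 17.3% higher and 16.8% lower over all genes tested. Their median log2 fold change was 0.08, against -0.10 over all genes. The 4 with the largest called rise were named after their values were seen. POLG-DT, beside the gene of the mitochondrial DNA polymerase, had 11, 11 and 5 counts with GFP and 12, 51 and 63 with ERRγ, so that ERRg replicate 2 was near the GFP libraries. GAS6-DT had 8, 10 and 12 counts with GFP and 21, 37 and 62 with ERRγ, MBTPS1-DT 10, 12 and 15 and then 35, 37 and 70, and APP-DT, beside the amyloid precursor protein gene, 9, 17 and 23 and then 40, 50 and 80. At these depths single libraries carry few reads. POLG-DT and GAS6-DT passed the filter on low counts only through the ERRg libraries, so their calls are not given as support, though both are among the 24.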
